A study of Mus musculus with 7 samples.

Results

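Glycolysis converts glucose to pyruvate in the cytoplasm with a net yield of ATP, and lactate dehydrogenase then reduces pyruvate to lactate and restores the NAD+ that the pathway consumes. Glucose enters the cell through facilitative transporters of the Slc2a family, and the steps catalysed by hexokinase, phosphofructokinase and pyruvate kinase are effectively irreversible. In the thymus, pre-TCR signaling is accompanied by growth and division, and cells that reach the small double-positive (DP) stage stop dividing. DP cells express both CD4 and CD8 and rearrange the TCR alpha chain.

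The 10 glycolysis genes described here were chosen by name for their place in the pathway, with earlier results of these data known. They are the transporter gene Slc2a1 and the genes of 9 enzymes, Hk2, Pfkl, Aldoa, Gapdh, Pgk1, Pgam1, Eno1, Pkm and Ldha. Of these, 9 had an entry among the 12092 distinct gene symbols of the expression table, each of them 1 entry, and all 9 entered the tests. Hk2, which encodes hexokinase 2, had no entry and has no value here. RNA-Seq was performed on TCRγδ- CD4+ CD8+ DP cells sorted from thymuses of 4- to 5-week-old mice, and 6 libraries of 4 genotypes were read. LP mice (L-DKO pTαKO, 2 libraries) carried Id2 f/f and Id3 f/f alleles with Cre expressed from the Lck promoter, together with deficiency of pTα, the invariant chain of the pre-TCR encoded by Ptcra. L-DKO mice (2 libraries) had the same Id2 and Id3 deletion with pTα intact, pTαKO mice (1 library, replicate 2) lacked pTα only, and the WT group had 1 library. LckCre acts in T lineage cells, and pTα-deficient mice hold few DP cells because most of their thymocytes stop at an earlier stage. Whether a library came from 1 mouse or from pooled mice is not given in the sources used here, so p values measure only the spread between these libraries. The comparison of genotypes asks how the expression of the pathway stood in DP cells without Id proteins, without the pre-TCR, or without both.

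The DP identity of the libraries and the targeted genes were examined first. Cd4 was between 9.08 and 9.55 and Cd8a between 9.31 and 9.57 on the log2(FPKM + 1) scale, the scale of every value below unless FPKM (fragments per kilobase of exon model, scaled to the mapped reads) is stated. Id3 was at 1.96 and 3.18 in the LP libraries, 1.91 and 3.32 in the L-DKO libraries, 5.25 in pTαKO and 6.22 in WT, and Id2 was at 1.92 and 0.99 in the LP libraries, 1.00 and 0.24 in the L-DKO libraries, 1.87 in pTαKO and 3.56 in WT. Ptcra was not lower in the libraries labelled as pTα-deficient, with 5.35 and 5.87 in the LP libraries, 6.35 and 6.62 in the L-DKO libraries, 5.75 in pTαKO and 5.06 in WT, so its level does not check the pTα label. The deleted part of the gene is not given in the sources used here. Erythroid genes separated libraries of the same genotype, with Hba-a1, an alpha globin gene, at 10.81 and 9.99 in the LP libraries, 8.58 and 10.85 in the L-DKO libraries, 10.61 in pTαKO and 8.70 in WT.

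Promoter sequences are shown for the lactate dehydrogenase gene Ldha and the enolase gene Eno1, which had the largest differences between LP and L-DKO among the 9 genes, and for Slc2a1, which had the smallest. Each window holds 250 bases before and 50 bases from a RefSeq start site of the gene in GRCm38.p6, the most upstream of those in the promoter table used, written 5′ to 3′ on the strand of the gene. Capitals mark ACGTG or GCGTG, the core of the element bound by hypoxia-inducible factor (HIF), on either strand (CACGT or CACGC when read on the strand shown), and CACGTG, the E-box letters bound by Myc among other factors. A CACGTG match contains ACGTG on both strands and is counted for each. The Ldha window lies at chr7:46845554-46845853, the Eno1 window at chr4:150236458-150236757 and the Slc2a1 window at chr4:119108495-119108794, all on the plus strand. The annotated Ldha gene begins further upstream, at 46842274, and that start was not analysed here.
Ldha: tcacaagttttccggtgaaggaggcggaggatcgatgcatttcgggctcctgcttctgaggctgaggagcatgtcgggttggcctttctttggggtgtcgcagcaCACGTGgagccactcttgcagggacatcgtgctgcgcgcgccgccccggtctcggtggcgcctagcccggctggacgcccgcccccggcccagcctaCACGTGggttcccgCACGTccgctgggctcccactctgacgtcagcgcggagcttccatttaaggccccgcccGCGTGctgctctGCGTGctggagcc
Eno1: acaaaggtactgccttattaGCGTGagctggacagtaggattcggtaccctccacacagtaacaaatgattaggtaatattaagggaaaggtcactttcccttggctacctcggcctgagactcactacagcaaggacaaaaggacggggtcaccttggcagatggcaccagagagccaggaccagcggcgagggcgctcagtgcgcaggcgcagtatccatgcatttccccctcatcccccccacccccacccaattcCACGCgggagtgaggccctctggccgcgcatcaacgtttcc
Slc2a1: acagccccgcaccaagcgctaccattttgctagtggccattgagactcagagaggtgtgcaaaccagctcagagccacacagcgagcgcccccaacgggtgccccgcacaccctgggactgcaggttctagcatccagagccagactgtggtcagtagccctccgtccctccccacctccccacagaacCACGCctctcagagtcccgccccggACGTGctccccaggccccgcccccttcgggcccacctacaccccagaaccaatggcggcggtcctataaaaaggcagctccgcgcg
The Ldha window held 7 matches to the HIF core, at positions -145, -144, -48, -47, -34, 26 and 38 from the start site, and 2 CACGTG matches at -145 and -48 that overlap the first 4 of them. Eno1 had 2 HIF core matches, at -230 and 10, and Slc2a1 had 2, at -61 and -36. Neither held CACGTG. Over the 10 genes, Hk2 included, 8 windows held at least 1 HIF core, against 43.8% of the windows taken in the same way for 27025 genes. A CACGTG was found in 1 of the 10 windows, against 7.24% of those genes. The E-box letters CAGCTG were in 1 of the 10 windows (16.1% of all genes) and CAGGTG in 0 (20.1% of all genes). These counts depend on the window taken for a gene. The other Ldha window of the table held 0 CACGTG, 2 HIF cores and 1 CAGGTG, and Aldoa and Pkm, without a HIF core in the window counted, had at least 1 in another. A match describes letters in a window of 300 bases and is not a bound site.

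Gapdh was the most abundant and Slc2a1 the least abundant of the 9 genes in every library. By the median FPKM over the 6 libraries the order was Gapdh (502.4), Pkm (219.1), Ldha (199.0), Eno1 (133.2), Aldoa (105.1), Pgk1 (45.2), Pgam1 (24.0), Pfkl (22.2) and Slc2a1 (7.88). FPKM is scaled for transcript length, so these levels can be set beside each other. Gapdh was above Pkm in 6 of 6 libraries. Pkm was above Ldha in only 2 of 6, the LP libraries, and below it in every other library. Pkm minus Ldha ran from -0.12 to 0.36. Pgam1 was above Pfkl in 3 of 6, with LP and L-DKO replicates on different sides, so that pair was not ordered beyond the spread between libraries. Eno1 was above Aldoa in 5 of 6, and each of the other neighbouring pairs kept its order in 6 of 6. The median range over the 6 libraries was 0.57 for the 9 genes and 0.86 for the 12063 genes tested. Aldoa had the narrowest range, 0.37, and Slc2a1 the widest apart from Pfkl, 1.12.

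**Figure D1:**
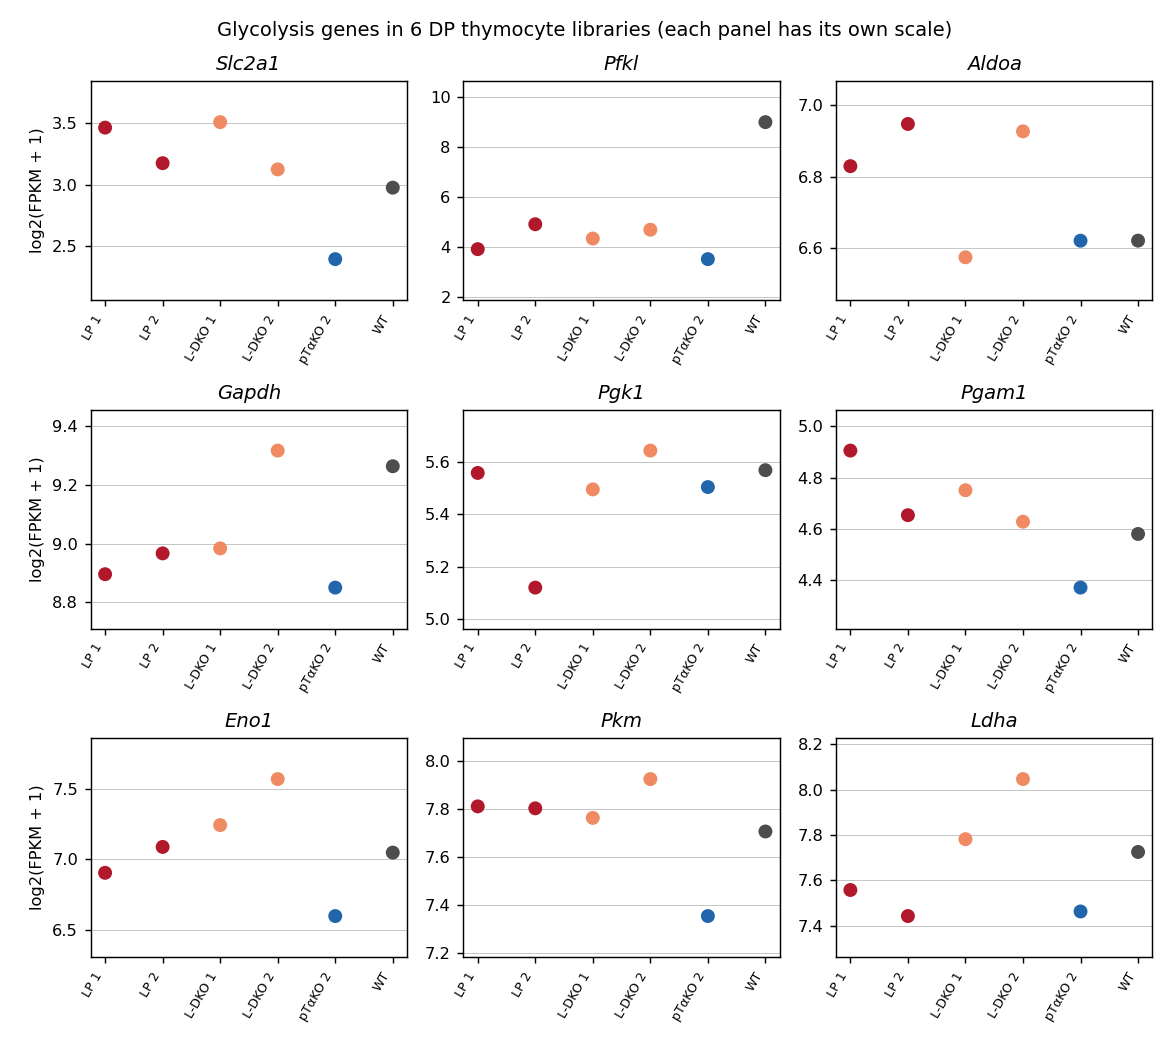
Level of each of the 9 glycolysis genes, log2(FPKM + 1) on the vertical axis with a scale of its own in each panel, against the 6 libraries on the horizontal axis; each point is 1 library. Ldha and Eno1 lay lower in the 2 LP libraries than in the L-DKO pair, Pfkl reached 9.01 in WT and at most 4.92 elsewhere, and the pTαKO library was lowest for 6 of the 9 genes.

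Of the entry steps, Slc2a1 encodes GLUT1, a widely expressed glucose transporter. It was listed at 3.47 and 3.18 in the LP libraries, 3.51 and 3.12 in the L-DKO libraries, 2.39 in pTαKO and 2.98 in WT. Both Id-deleted genotypes lay above both Id-intact libraries, and LP and L-DKO overlapped. In the additive model, which fits 1 term for Id deletion and 1 for pTα deficiency to all 6 libraries, Slc2a1 was higher by 0.63 ± 0.27 (SE) in Id-deleted than in Id-intact libraries, which did not pass after adjustment over all genes (limma, adjusted p = 0.783). In sorted pools such as these, a change in the kinds of cells present and a change of RNA within each cell cannot be told apart.

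Pfkl, the liver-type subunit of phosphofructokinase, gave the widest spread. It was listed at 3.92 and 4.92 in the LP libraries, 4.35 and 4.70 in the L-DKO libraries, 3.52 in pTαKO and 9.01 in WT. In FPKM these are 14.1 and 29.3 in the LP libraries, 19.3 and 25.0 in the L-DKO libraries, 10.5 in pTαKO and 513.8 in WT. The WT library stood 4.09 above the next one, and Pfkl ranked 145 among all genes in that library. Pfkl (chr10:77986947-78009807, GRCm38.p6) was not alone in standing apart in 1 library, because 9 of 12063 genes in WT, 6 and 15 in the LP libraries replicates 1 and 2, 3 and 15 in the L-DKO libraries replicates 1 and 2, and 17 in pTαKO lay at least 3 above every other library. With 1 WT library, a genotype difference and a property of that library cannot be told apart. LP minus WT was -4.59 ± 0.46 (limma, adjusted p = 0.133) and L-DKO minus WT was -4.49 ± 0.46 (adjusted p = 0.261), and neither passed. The other 2 phosphofructokinase genes did not share the pattern. Pfkp, the platelet-type subunit, was at 5.49 and 5.46 in the LP libraries, 5.89 and 5.41 in the L-DKO libraries, 5.44 in pTαKO and 5.79 in WT. Pfkm, the muscle-type subunit, was at 3.68 and 3.98 in the LP libraries, 3.54 and 3.75 in the L-DKO libraries, 4.22 in pTαKO and 4.16 in WT. Pfkp was the most abundant of these 3 genes in every library but WT, with 62.8% and 49.4% of their summed FPKM in LP, 66.1% and 52.5% in the L-DKO libraries and 60.1% in pTαKO, against 9.31% in WT, where Pfkl took 87.8%.

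Aldoa encodes the aldolase that splits fructose-1,6-bisphosphate, and it was the steadiest of the 9 genes. Its values were 6.83 and 6.95 in the LP libraries, 6.58 and 6.93 in the L-DKO libraries, 6.62 in pTαKO and 6.62 in WT. Both LP libraries lay above WT and above pTαKO, and they overlapped with L-DKO.

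Gapdh and Pgk1 catalyse the oxidation of glyceraldehyde-3-phosphate and the first ATP-forming step. Gapdh was at 8.90 and 8.97 in the LP libraries, 8.98 and 9.32 in the L-DKO libraries, 8.85 in pTαKO and 9.26 in WT. The 3 pTα-deficient libraries lay below the 3 others, but the gap between LP replicate 2 and L-DKO replicate 1 was small, and the difference in the additive model, -0.28 ± 0.13, did not pass (limma, adjusted p = 0.448). Pgk1 was at 5.56 and 5.12 in the LP libraries, 5.49 and 5.64 in the L-DKO libraries, 5.50 in pTαKO and 5.57 in WT. Only LP replicate 2 stood below the rest. The table also lists Pgk1-rs7, at 3.18 to 3.52 over the 6 libraries, and reads of Pgk1 and this near-identical copy may have been split between them.

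Pgam1, the phosphoglycerate mutase that moves the phosphate within phosphoglycerate, was at 4.91 and 4.65 in the LP libraries, 4.75 and 4.63 in the L-DKO libraries, 4.37 in pTαKO and 4.58 in WT. It lay above WT and pTαKO in all 4 Id-deleted libraries, by 0.26 ± 0.17 in the additive model (limma, adjusted p = 0.831). The copy Pgam1-ps2 was listed at 3.45 to 3.93, so the level of Pgam1 is uncertain to the extent that reads were shared.

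Eno1 (chr4:150236708-150248879) encodes alpha-enolase, the main enolase outside muscle and neurons. It was at 6.90 and 7.09 in the LP libraries, 7.24 and 7.57 in the L-DKO libraries, 6.60 in pTαKO and 7.05 in WT. Both LP libraries were below both L-DKO libraries, pTαKO was below WT, and WT lay between the LP replicates. LP minus L-DKO was -0.41 ± 0.17 (limma, adjusted p = 0.488, and 0.440 to 0.783 over the alternatives tried), and the pTα term of the additive model was -0.42 ± 0.13 (adjusted p = 0.288). The copy Eno1b was listed at 1.82 to 2.65.

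Pkm encodes the muscle-type pyruvate kinase, which makes pyruvate and ATP from phosphoenolpyruvate. Its values were 7.81 and 7.80 in the LP libraries, 7.76 and 7.92 in the L-DKO libraries, 7.35 in pTαKO and 7.71 in WT. The 4 Id-deleted libraries lay within 0.16 of each other and above both Id-intact ones, and the Id term was 0.29 ± 0.12 (limma, adjusted p = 0.777). The table gives 1 value per gene, so the PKM1 and PKM2 splice forms were not separated.

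Ldha (chr7:46842274-46855627) encodes the lactate dehydrogenase subunit that predominates in glycolytic tissue. It was listed at 7.56 and 7.44 in the LP libraries, 7.78 and 8.05 in the L-DKO libraries, 7.46 in pTαKO and 7.73 in WT. In FPKM these are 187.4 and 173.0 in the LP libraries, 219.0 and 263.3 in the L-DKO libraries, 175.4 in pTαKO and 210.6 in WT. All 3 pTα-deficient libraries lay below all 3 libraries with pTα. LP minus L-DKO was -0.41 ± 0.15, with an unadjusted 95% interval of -0.81 to -0.01 (limma, adjusted p = 0.437, and 0.409 to 0.713 over the alternatives tried). The pTα term was -0.36 ± 0.12 (adjusted p = 0.316).

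No glycolysis gene passed the adjusted threshold of 0.05 in limma in any of the 6 comparisons. Few genes of the whole table did. Between LP and L-DKO 0 of 9 glycolysis genes were called (1 at an unadjusted p under 0.05, Ldha), against 0.0166% of all 12063 genes (11.1% unadjusted). For LP and WT these were 0 of 9 (1 unadjusted, Pfkl) against 0.058% (6.08% unadjusted), for LP and pTαKO 0 of 9 (1 unadjusted, Pkm) against 0.0995% (6.19% unadjusted), and for L-DKO and WT 0 of 9 (1 unadjusted, Pfkl) against 0.0414% (4.34% unadjusted). For pTα deficiency in the additive model 0 of 9 were called (2 unadjusted, Eno1 and Ldha) against 0.265% (12.9% unadjusted), and for Id deletion 0 of 9 (1 unadjusted, Eno1) against 0.0166% (6.42% unadjusted).

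The medians over the 9 genes differed in sign between comparisons. Between LP and L-DKO, 3 genes were above and 6 below 0, with a median of -0.10 for the 9 genes (-0.0328 when LP replicate 2 was left out, -0.28 when L-DKO replicate 1 was) and 0.0014 for all genes, and the libraries of 3 genes did not overlap, all 3 lower in LP (Gapdh, Eno1 and Ldha), against 22.2% of all genes that were lower without overlap. With pTα deficiency in the additive model the median was -0.19, against 0.0091 for all genes. It was -0.10 without pTαKO or without WT, where the pTα term is the same difference as LP minus L-DKO. With all libraries, 2 of 9 genes, Gapdh and Ldha, were lower without overlap, against 8.8% of all genes. Eno1, whose WT value lay below that of LP replicate 2, was not among them.

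With Id deletion the median in the additive model was 0.20, against 0.005 for all genes. It was 0.40 without WT, where the Id term is LP minus pTαKO, and 0.13 without pTαKO, where it is L-DKO minus WT. The 4 Id-deleted libraries lay above both Id-intact libraries for 3 of 9 genes, Slc2a1, Pgam1 and Pkm, and below them for 0, against 6.94% of all genes that were higher without overlap. Eno1 was higher by 0.38 ± 0.14 in the Id term (limma, adjusted p = 0.751). This term rests on 2 Id-intact libraries of 1 genotype each. LP and L-DKO replicates were apart by up to 0.44 (LP, Pgk1) and 0.39 (L-DKO, Slc2a1) among genes other than Pfkl, which is larger than most of these differences.

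**Figure D2:**
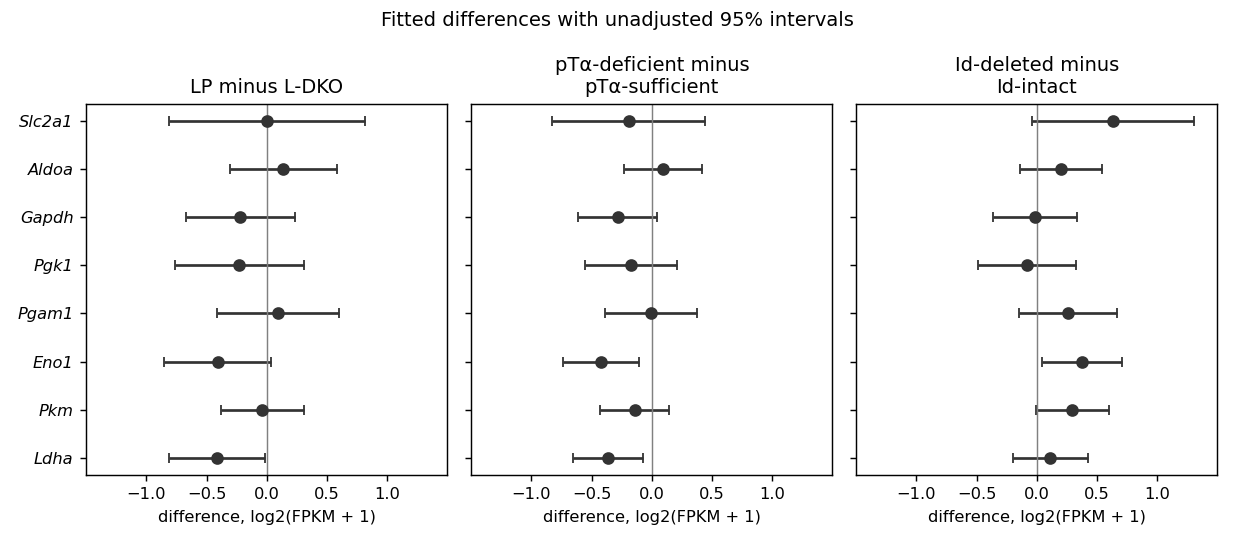
Differences from the limma fits for 8 glycolysis genes (Pfkl left out for its WT value), in log2(FPKM + 1) on the horizontal axis, with bars for unadjusted 95% intervals; left, LP minus L-DKO, middle and right, the pTα and Id terms of the additive model. The bars of Ldha lie below 0 in the left and middle panels and those of Eno1 in the middle panel, the bar of Eno1 in the right panel lies above 0, and no gene passed after adjustment over all genes.

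The lone pTαKO library was lowest of the 6 for 6 of the 9 genes (Slc2a1, Pfkl, Gapdh, Pgam1, Eno1 and Pkm), against 17.9% of all genes. L-DKO replicate 2 was highest for 5 of 9 (Gapdh, Pgk1, Eno1, Pkm and Ldha), against 22.5% of all genes. The 6 erythroid and platelet genes with an entry, of 12, summed to 714.8 and 3326 FPKM in the L-DKO libraries. Their sums were 3015 and 1737 FPKM in the LP libraries, 2631 FPKM in pTαKO and 731 FPKM in WT. The part of these genes in the order of the libraries was not tested. LP lay above pTαKO without overlap for 7 of 9 genes and below it for 0, against 33.9% of all genes that were higher. The median LP minus pTαKO difference was 0.40, the largest of the 6 comparisons, and Slc2a1 had the largest single difference (0.93 ± 0.38, limma, adjusted p = 0.798). pTαKO minus WT, 1 library against 1 and not tested, had a median of -0.35 over the 9 genes and 0.021 over all genes. L-DKO minus WT had a median of 0.13 (0.0563 without L-DKO replicate 2), with 5 genes higher than WT without overlap (34.9% of all genes) and 1, Pfkl, lower (29.7% of all genes). LP minus WT had a median of -0.05 (0.0402 without LP replicate 1), with 4 genes higher and 4 lower without overlap, against 67.5% of all genes in either direction. These comparisons share libraries and are not independent of each other.

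The 2 lactate dehydrogenase genes differed in opposite directions with pTα deficiency. Lactate dehydrogenase is a tetramer of Ldha and Ldhb subunits. Ldhb, the subunit that predominates in oxidative tissues, was the most abundant of the 14 other glycolysis genes with an entry. It was at 9.03 and 8.84 in the LP libraries, 9.10 in pTαKO, 8.56 and 8.75 in the L-DKO libraries and 8.67 in WT. All 3 pTα-deficient libraries lay above the 3 others, the opposite order to Ldha, and the pTα term for Ldhb was 0.33 ± 0.12 (limma, adjusted p = 0.355). Of those 14 genes, 2 were higher (Ldhb and Slc2a3) and 1 lower (Hk1) without overlap by pTα status, against 9.94% and 8.8% of all genes. Ldha made up 26.4% and 27.4% of the summed Ldha and Ldhb FPKM in LP and 24.3% in pTαKO, against 36.7% and 38.0% in the L-DKO libraries and 34.1% in WT. The mean share was 26.0% ± 1.57 in pTα-deficient and 36.3% ± 1.98 in pTα-sufficient libraries (SD, n = 3 each), without overlap. The share was formed for 5 steps after the values of the genes had been seen, so it is a description with no test. It was the only 1 of the 5 whose libraries did not overlap.

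**Figure D3:**
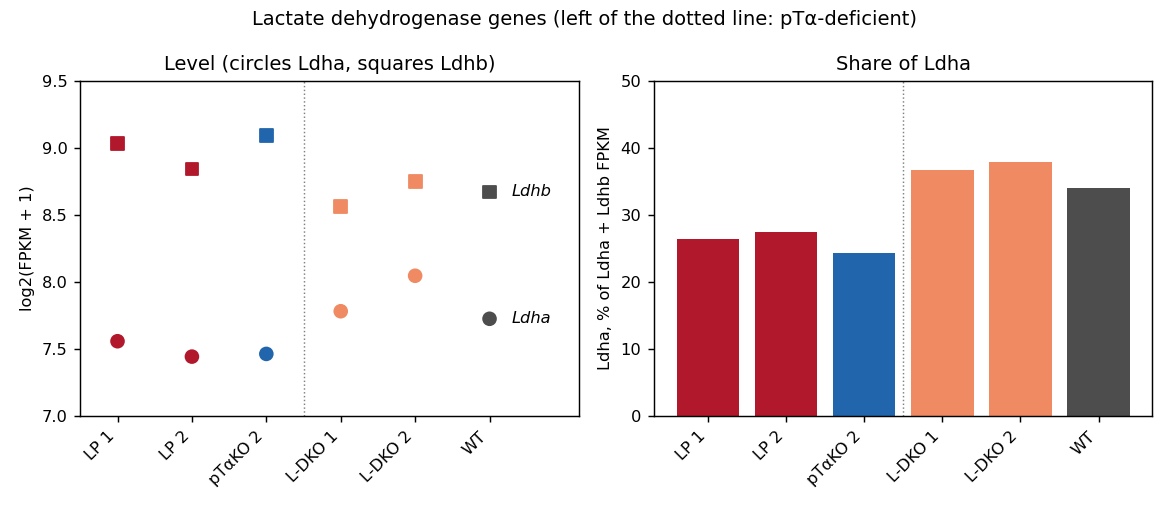
Left, levels of Ldha (circles) and Ldhb (squares) in log2(FPKM + 1) on an axis that starts at 7; right, Ldha as a percentage of the summed Ldha and Ldhb FPKM; each point or bar is 1 library, with the pTα-deficient libraries left of the dotted line. The share of Ldha lay between 24.3% and 27.4% in the LP libraries and pTαKO and between 34.1% and 38.0% in the L-DKO libraries and WT.

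Summed levels of myeloid and B cell markers also lay apart between the pTα-deficient libraries and the 3 others. The 16 myeloid and dendritic genes with an entry, of 18 listed, summed to 115.8 and 107.5 FPKM in LP and 431.1 in pTαKO, against 46.8 and 41.7 in the L-DKO libraries and 38.4 in WT. Of the 16, 11 were higher without overlap in pTα-deficient libraries (9.94% of all genes). In the pTα term 0 passed the adjusted threshold, and 10 had an unadjusted p under 0.05 (limma, 12.9% of all genes). Lyz2, a lysozyme gene of myeloid cells, was at 4.78 and 5.25 in the LP libraries and 5.09 in pTαKO, against 3.19 and 3.72 in the L-DKO libraries and 3.19 in WT, and none of the 16 was listed at 0 in any library. The 5 B cell genes with an entry, of 11, summed to 63.6 and 75.8 FPKM in LP and 47.4 in pTαKO, against 29.6 and 39.3 in the L-DKO libraries and 20.2 in WT, and Cd79a had no entry. Single B cell genes did not all follow their sum. Of 4 tested, 3 were above and 1 below 0 in the pTα term, and 0 passed. An unadjusted p under 0.05 was found for 2 (limma, 12.9% of all genes), and 1 was higher without overlap (9.94% of all genes). Jchain, the joining chain of secreted antibodies, was at 4.72 and 4.94 in the LP libraries, 2.46 and 1.00 in the L-DKO libraries, 0.52 in pTαKO and 0.78 in WT, and both Jchain and Ighd were lowest in pTαKO. The 21 proliferation genes with an entry, of 22, were all below 0 in the pTα term (median -0.49, 0 passed, 12 at an unadjusted p under 0.05 against 12.9% of all genes), 9 of them lower without overlap (8.8% of all genes), and summed to 950.5 and 1214 FPKM in LP and 1487 in pTαKO, against 1424 and 1882 in the L-DKO libraries and 1812 in WT. The part of these markers in the lactate dehydrogenase values was not tested. Between LP and L-DKO alone, which leaves out the pTαKO library with its high myeloid sum, the Ldha difference was -0.41, while 12 of the 16 myeloid genes were higher (22.3% of all genes) and 16 of the 21 proliferation genes lower (22.2% of all genes) without overlap.

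The remaining genes of the pathway came from a list of 22, of which 14 had an entry and 0 passed in any comparison (limma). Between LP and L-DKO 1 of the 14 had an unadjusted p under 0.05 (11.1% of all genes). Their median LP minus L-DKO difference was 0.15, with 5 higher and 1 lower without overlap (22.3% and 22.2% of all genes). Hk1, the only other hexokinase gene with an entry, was at 5.25 and 5.22 in the LP libraries, 5.61 and 5.61 in the L-DKO libraries, 5.08 in pTαKO and 5.36 in WT. LP lay below L-DKO without overlap, with a difference of -0.38 ± 0.15 (limma, adjusted p = 0.456). Gpi1, the isomerase between hexokinase and phosphofructokinase, was at 7.51 and 7.45 in the LP libraries, 7.15 and 7.34 in the L-DKO libraries, 7.09 in pTαKO and 7.14 in WT. LP lay above L-DKO without overlap, with a difference of 0.23 ± 0.14 (adjusted p = 0.594). Tpi1, which interconverts the triose phosphates, was at 5.42 and 5.95 in the LP libraries, 5.27 and 5.88 in the L-DKO libraries, 5.44 in pTαKO and 5.13 in WT, and overlapped between LP and L-DKO. Of these neighbouring steps, Hk1 and Gpi1 thus lay in opposite directions between LP and L-DKO, neither past the threshold.

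Slc2a3, which encodes the high-affinity transporter GLUT3, was more abundant than Slc2a1 in every library but WT. It was at 3.97 and 4.60 in the LP libraries, 3.71 and 3.74 in the L-DKO libraries, 3.79 in pTαKO and 2.80 in WT. The Id term was 0.71 ± 0.25 (limma, adjusted p = 0.751) and the pTα term 0.70 ± 0.24 (adjusted p = 0.323). Slc2a1 made up 40.6% and 25.7% of the summed FPKM of the 2 transporters in LP, 46.2% and 38.5% in the L-DKO libraries, 24.9% in pTαKO and 53.4% in WT. Adpgk, an ADP-dependent glucokinase, was at 4.07 and 3.78 in the LP libraries, 3.11 and 2.91 in the L-DKO libraries, 3.55 in pTαKO and 3.64 in WT. It had the largest LP minus L-DKO difference of those 14 genes, 0.91 ± 0.27, which did not pass (limma, adjusted p = 0.374). Eno2 and Gapdhs, known for expression in neurons and in sperm, were at or under 2.60 in each library, and both had WT values above both L-DKO libraries without passing.

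**Figure D4:**
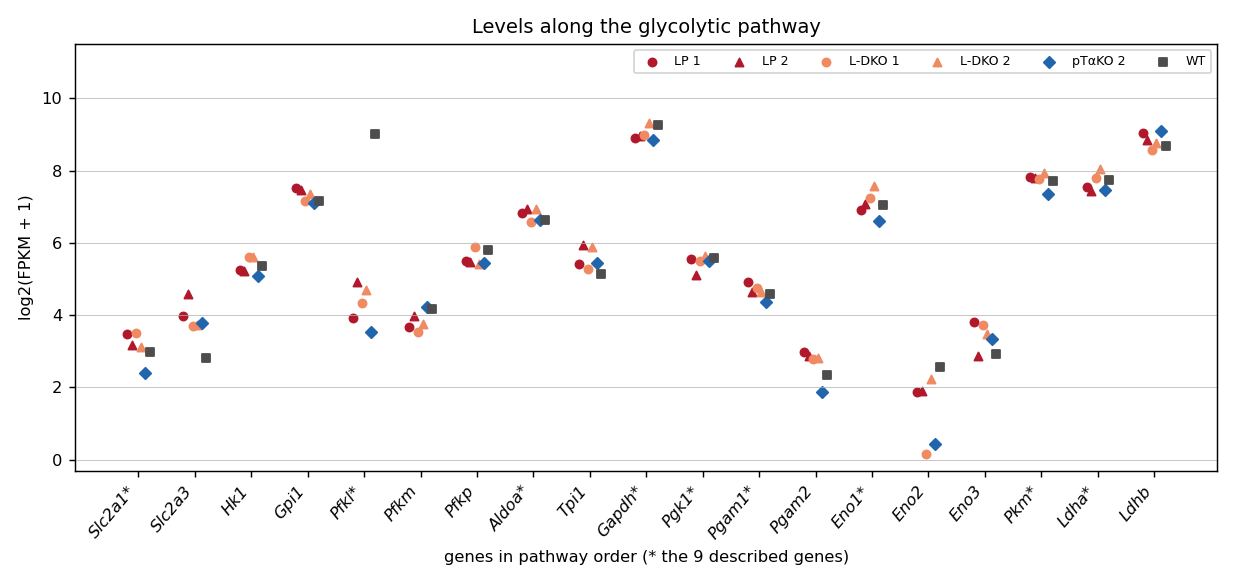
Levels of 19 glycolysis genes in pathway order on the horizontal axis, in log2(FPKM + 1) on the vertical axis; each marker is 1 library, and an asterisk marks the 9 genes described in full. Gapdh and Ldhb stood highest in every library but WT, where Pfkl, at 9.01, lay between them.

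The regulators of glycolysis were 29 listed genes, of which 23 had an entry and 0 passed in any comparison (limma). Between LP and L-DKO 6 of the 23 had an unadjusted p under 0.05 (11.1% of all genes), 3 in each direction. Their median LP minus L-DKO difference was 0.01, with 6 higher and 6 lower without overlap (22.3% and 22.2% of all genes). Pfkfb3 encodes an enzyme that makes fructose-2,6-bisphosphate, an activator of phosphofructokinase. It was at 3.55 and 3.61 in the LP libraries, 4.26 and 4.37 in the L-DKO libraries, 3.97 in pTαKO and 4.51 in WT, with an LP minus L-DKO difference of -0.74 ± 0.21 (limma, adjusted p = 0.365). Pfkfb1, a related gene known from liver and muscle, was at 0.65 and 0.87 in the LP libraries and 2.22 and 2.07 in the L-DKO libraries (-1.38 ± 0.40, adjusted p = 0.373), with 1.20 in pTαKO and 1.04 in WT. Pdk2, a kinase that inactivates pyruvate dehydrogenase and so limits the entry of pyruvate into mitochondria, was at 4.52 and 4.88 in the LP libraries, 3.61 and 3.73 in the L-DKO libraries, 4.01 in pTαKO and 3.56 in WT. Its LP minus L-DKO difference was 1.03 ± 0.24 (limma, adjusted p = 0.319). Pdk3, of the same kinase family, was at 4.08 and 3.56 in the LP libraries and 3.54 and 2.28 in the L-DKO libraries, without overlap and without passing (0.91 ± 0.50, adjusted p = 0.569).

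The genes of 2 transcription factors known to act on glycolytic promoters were added after their values had been seen. Myc, which activates many glycolysis genes in dividing lymphocytes, was at 4.44 and 4.71 in the LP libraries and 4.61 in pTαKO, against 3.94 and 3.81 in the L-DKO libraries and 3.72 in WT. It was higher in all 3 pTα-deficient libraries, by 0.77 ± 0.17 in the additive model (limma, adjusted p = 0.180), while Ldha was lower in the same 3 libraries. Of the 23 regulators of glycolysis, 2 were higher (Myc and Pdk2) and 4 lower (Pfkfb3, Egln3, Akt1 and Arnt) without overlap by pTα status (9.94% and 8.8% of all genes). Hif1a, the oxygen-regulated subunit of HIF, was at 4.86 and 5.10 in the LP libraries, 5.07 and 5.04 in the L-DKO libraries, 5.22 in pTαKO and 4.94 in WT, with overlap between LP and L-DKO. Arnt, of the same list of regulators, was at 4.56 and 4.55 in the LP libraries and 4.73 in pTαKO, against 4.88 and 5.17 in the L-DKO libraries and 4.87 in WT.

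HIF targets outside glycolysis numbered 15, of which 11 had an entry and 0 passed in any comparison, with 2 at an unadjusted p under 0.05 between LP and L-DKO (11.1% of all genes). Of the 11, 9 were below 0 in LP minus L-DKO, with a median of -0.23, and 4 were lower and 2 higher without overlap (22.2% and 22.3% of all genes). Ndrg1, a gene induced by hypoxia, was at 3.20 and 2.44 in the LP libraries, 4.21 and 4.57 in the L-DKO libraries, 2.03 in pTαKO and 3.08 in WT. LP minus L-DKO was -1.57 ± 0.38 (limma, adjusted p = 0.326) and the pTα term -1.40 ± 0.30 (adjusted p = 0.177). Egln3, a prolyl hydroxylase that marks HIF for degradation and is itself a HIF target, was at 3.47 and 3.20 in the LP libraries and 3.29 in pTαKO, against 3.99 and 4.07 in the L-DKO libraries and 4.15 in WT. The 3 pTα-deficient libraries were below the 3 others, as for Ldha, and the pTα term was -0.75 ± 0.19 (limma, adjusted p = 0.230). Of the 11 HIF targets, 2 were lower (Egln3 and Ero1l) and 0 higher without overlap by pTα status (8.8% and 9.94% of all genes). Egln3 was also in the list of regulators, so it enters the counts of both lists. Vegfa, the angiogenic growth factor, varied within LP from 0.39 to 2.25, and Ddit4, an inhibitor of mTORC1, was at 7.38 and 7.60 in the LP libraries, 7.86 and 7.30 in the L-DKO libraries, 6.92 in pTαKO and 6.78 in WT, higher in the 4 Id-deleted libraries without passing (Id term 0.68 ± 0.19, adjusted p = 0.728).

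Transporters of glucose, lactate and pyruvate numbered 11, of which 6 had an entry and 0 passed in any comparison. Between LP and L-DKO 0 of the 6 had an unadjusted p under 0.05 (limma, 11.1% of all genes). Slc16a1, the monocarboxylate transporter MCT1, was at 5.48 and 5.81 in the LP libraries, 5.29 and 5.47 in the L-DKO libraries, 5.80 in pTαKO and 6.02 in WT, with an L-DKO minus WT difference of -0.64 ± 0.23 (adjusted p = 0.999). Mpc2, a subunit of the mitochondrial pyruvate carrier, was at 5.92 and 5.94 in the LP libraries, 5.32 and 5.74 in the L-DKO libraries, 5.99 in pTαKO and 5.65 in WT, higher in all 3 pTα-deficient libraries (pTα term 0.38 ± 0.14, adjusted p = 0.368). The other subunit, Mpc1, did not share this order, with 5.52 and 5.05 in the LP libraries, 5.36 and 4.76 in the L-DKO libraries, 4.70 in pTαKO and 5.38 in WT. Of the 6 transporter genes, 2 were higher and 0 lower without overlap by pTα status (9.94% and 8.8% of all genes). Slc2a8, an intracellular glucose transporter, was at 1.63 and 1.43 in the LP libraries, 2.38 and 2.20 in the L-DKO libraries, 3.23 in pTαKO and 2.96 in WT, lower in the Id-deleted libraries (Id term -1.19 ± 0.34, adjusted p = 0.728).

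In the pentose phosphate branch, 8 of 10 genes had an entry, with a median LP minus L-DKO difference of 0.02, and in serine and glycine synthesis 7 of 7, with -0.07 and no gene without overlap between LP and L-DKO. Of 22 genes for pyruvate dehydrogenase and the citric acid cycle all 22 had an entry, with a median of 0.01, and 5 were higher and 4 lower without overlap, shares near those of all genes (22.3% and 22.2%). None of these genes passed in any comparison. Between LP and L-DKO 0, 0 and 2 of them had an unadjusted p under 0.05 (limma), against 11.1% of all genes. Fh1, fumarate hydratase, was at 4.03 and 3.68 in the LP libraries and 3.92 in pTαKO, against 4.40 and 4.61 in the L-DKO libraries and 4.68 in WT, the same split as for Ldha (pTα term -0.69 ± 0.18, adjusted p = 0.232). Of the 22 genes listed with Fh1, only 2 were lower and 1 higher without overlap by pTα status (8.8% and 9.94% of all genes). Idh3g, a subunit of isocitrate dehydrogenase, was at 6.33 and 6.18 in the LP libraries, 5.86 and 5.97 in the L-DKO libraries, 7.11 in pTαKO and 6.48 in WT, highest where Id genes were intact (Id term -0.70 ± 0.13, adjusted p = 0.511). Prps1, which draws ribose phosphate into nucleotides, was likewise lower in the Id-deleted libraries, with 4.75 and 4.28 in the LP libraries, 4.25 and 4.85 in the L-DKO libraries, 5.33 in pTαKO and 5.50 in WT (Id term -0.88 ± 0.23, adjusted p = 0.728).

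Among themselves, the 9 glycolysis genes did not follow 1 profile over the 6 libraries. Leaving out Pfkl, the highest Pearson coefficients were 0.94 for Slc2a1 with Pgam1 and 0.85 for Eno1 with Ldha, and the lowest was -0.34 for Aldoa with Pgk1. The pathway genes most like the mean of the other 8 glycolysis genes, of 90 compared, were Mthfd2 (0.94), Ndrg1 (0.89), Eno1b (0.89), Bpgm (0.86) and Dlat (0.85). Eno1b is a near-identical copy of Eno1, so its likeness may come from shared reads. With Pfkl included, the list was led by Pdk1 (0.89), and a mean that holds Pfkl mostly follows the WT library. These coefficients describe 6 libraries from 4 genotypes that share scaling and cell composition, and no test was made of them.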

How the data were processed

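RNA-Seq libraries were made from poly(A) RNA of sorted DP thymocytes with random hexamers, without molecular identifiers. Per the submitters' processing notes, reads were trimmed (Trimmomatic 0.32), aligned to mm10 (TopHat2 2.0.9) and quantified (Cufflinks 2.2.0). The authors dropped low-quality genes, with no criterion given. The deposited table holds log2 FPKM, taken here as log2(FPKM + 1) because no value is below 0. The authors also deposited 2 columns of means and 3 of differences, which were not used. Of 7 labelled samples, 6 had a column, and replicate 1 of pTαKO was not analysed here. Sequencing depth is not stated in the sources used here, so no counting interval is given. Medians over the 12092 distinct symbols were 3.95 to 4.02, and the 20 most abundant of them held 30.1% (WT) to 72.7% (LP replicate 2) of all FPKM.

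The table had 13097 entries and 12092 symbols. For symbols with several entries (1540 entries) the one with the highest mean was kept, and 297 lost hyphens were restored. Genes averaging 0.5 FPKM or more (12063) were fitted with limma 3.58.1 (lmFit, eBayes with trend, R 4.3.3), as 1 mean per genotype (2 residual degrees of freedom, 2.88 from the prior) and as an additive model of Id and pTα status (3, and 2.94 from the prior), with Benjamini-Hochberg adjustment over all genes and a threshold of 0.05. WT and pTαKO, with 1 library each, were assumed to vary like the other groups. Libraries were not rescaled. Groups are said not to overlap where every library of 1 exceeds every library of the other. The recovery of set differences by the fit was checked on simulated data with the same spread in every genotype. Such data cannot test whether WT and pTαKO vary like the other groups.

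The members and gene lists were chosen with earlier results of these data known. All 10 members are named. From other lists, genes past the threshold, otherwise up to 4 with the largest difference among those not overlapping between LP and L-DKO or L-DKO and WT, and the 4 most abundant other glycolysis genes are named, with the markers and targeted genes. Myc, Hif1a, Arnt, Akt1, Ero1l, Hk1, Pfkm and the gene copies were chosen after their values were seen. Promoters and coordinates are from RefSeq tables for GRCm38.p6. Alternatives were another pseudocount (0.1), other filters (none, or a mean FPKM of at least 5), 2 rescalings, no trend, a replicate block, leaving out each library and, added after the data were seen, leaving out Pfkl.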

Additional observations from a re-analysis of the deposited data

Results flagged for a closer look

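Pfkl differed in opposite directions with Id deletion in the 2 pTα backgrounds. L-DKO minus WT was -4.49 in cells with pTα, whereas LP minus pTαKO was 0.90 in cells without pTα, with every library on the same side within each comparison. The difference between the 2 effects was not tested. Both rest on 1 Id-intact library each, WT at 9.01 and pTαKO at 3.52. LP minus pTαKO was 1.40 without LP replicate 1 and 0.40 without LP replicate 2.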

How the results depend on the processing

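No glycolysis gene passed the threshold in limma in any of 594 tests of single genes under the alternatives, and 567 kept their direction. Many of the 567 could not have reversed. The other filters and the fit with no trend repeat each difference by construction. So do LP minus WT and LP minus pTαKO without an L-DKO replicate, and L-DKO minus WT without an LP replicate. The replicate block leaves LP minus L-DKO unchanged too. The 567 are therefore no measure of robustness. Of 27 that reversed, 24 left out a library. The other 3 were Slc2a1 in LP minus L-DKO (-0.0147 with a common median) and Pgk1 in L-DKO minus WT (-0.024 with a common median, -0.0246 with trimmed-mean factors). Leaving out 1 library at a time, LP minus L-DKO ran from -0.0383 to 0.314 (Aldoa), -0.602 to 0.396 (Pfkl), -0.0361 to 0.216 (Pgam1), -0.117 to 0.0438 (Pkm) and -0.19 to 0.196 (Slc2a1). LP minus WT ran from -0.143 to 0.0402 (Eno1), and LP minus pTαKO from -0.0202 to 0.0946 (Ldha) and -0.383 to 0.0538 (Pgk1). L-DKO minus WT ran from -0.0465 to 0.305 (Aldoa), -0.28 to 0.0533 (Gapdh) and -0.0733 to 0.0746 (Pgk1). The pTα term ran from -0.0219 to 0.179 (Aldoa), -0.11 to 0.0899 (Pgam1) and -0.358 to 0.0029 (Slc2a1), and the Id term from -0.113 to 0.0811 (Gapdh), -4.49 to 0.898 (Pfkl) and -0.165 to 0.0235 (Pgk1). Ldha and Eno1 stayed below 0 in LP minus L-DKO (-0.55 to -0.28 and -0.57 to -0.25) and in the pTα term (-0.42 to -0.27 and -0.52 to -0.33). For these genes both LP libraries lay below both L-DKO libraries, and pTαKO lay below WT. Leaving out a library could therefore not reverse either difference, and the unchanged sign adds no support. Without pTαKO or without WT the pTα term is LP minus L-DKO itself, so those fits are not a separate check. The median over the 9 genes ran from -0.28 (without L-DKO replicate 1) to -0.0328 (without LP replicate 2) in LP minus L-DKO, from 0.0563 (without L-DKO replicate 2) to 0.149 in L-DKO minus WT, from -0.28 to -0.10 (without pTαKO or WT) in the pTα term, from 0.13 to 0.40 (without WT) in the Id term, and from -0.0515 to 0.0402 in LP minus WT. The cause was not tested.

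Counts over all genes moved by over 1.5 times. The pTα term called 32 genes, but 7 with no trend, 16 without LP replicate 1, 1 without LP replicate 2 or without either L-DKO replicate, 2 without pTαKO and 3 without WT. LP and L-DKO called 2, but 4 with a common median, trimmed-mean factors or the stricter filter, 1 with no trend, 12 and 8 without LP replicates 1 and 2, and 5 without L-DKO replicate 2. LP and WT called 7, but 1 with no trend, 13 without either LP replicate and 3 without either L-DKO replicate. L-DKO and WT called 5, but 0 with no trend (563 unadjusted), 13 without either LP replicate, and 2 and 0 without L-DKO replicates 1 and 2 (483 unadjusted in the last). LP and pTαKO called 12, but 8 with no trend. The Id term called 2, but 5 without pTαKO, 12 without WT and 3 without LP replicate 2 or L-DKO replicate 1.

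Replicate numbers of LP and L-DKO did not pair the libraries (correlation of deviations 0.035). With a replicate block 0 of 9 glycolysis genes were called, with 2 of all genes for LP and L-DKO and 13 for LP and pTαKO. No paired analysis was possible for WT because its label has no number. With 1 library of WT and of pTαKO and no stated depth, differences of the size seen for Ldha and Eno1 were not resolved from the spread between libraries.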
